A study of Mus musculus with 8 samples.

Results

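The genes described here are 8 transcription factors of upper-layer cortical neurons: Cux1, Cux2, Pou3f1, Pou3f2, Pou3f3, Rorb, Mef2c and Bhlhe22. They were taken by symbol from the 23284 gene symbols counted in each library. All 8 passed the filter on low counts, beside 14696 genes in all. Dorsal cortex of E15.5 mouse embryos (strain label C57BL/6) gave 8 RNA-seq libraries, of which 4 carry the label ErbB4+/+ and the other 4 the label ErbB4-/-. ErbB4 is a receptor tyrosine kinase that binds neuregulins. The ErbB4-/- mice carry a transgene that expresses ErbB4 in the heart under the α-MHC promoter, which rescues the lethal heart defect of the full knockout, and the ErbB4+/+ mice are the wild type. Each line was bred as its own homozygous colony, and the meninges and ganglionic eminences were removed at dissection. The labels number the libraries 1 to 4 within a genotype and do not name litters, so p-values measure the spread between these libraries. The comparison addresses whether loss of ErbB4 changes the RNA level of these factors in the embryonic cortex.

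Excitatory neurons of the neocortex are born from radial glia and intermediate progenitors in an inside-out order, so that deep-layer neurons come first and upper-layer neurons (layers II to IV) come later and migrate past them. Around mid to late corticogenesis, upper-layer neurons are being generated and are on their way to the cortical plate. The transcription factors described here are used to recognise these neurons or are needed to make, place or wire them, but several are also expressed in progenitors, in deep-layer cells or in other brain regions.

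The factors fall into a pair of CUT-homeodomain proteins (Cux1 and Cux2), a trio of class III POU proteins (Pou3f1, Pou3f2 and Pou3f3), a nuclear receptor (Rorb), a MADS-box factor (Mef2c) and a basic helix-loop-helix factor (Bhlhe22). In the mouse genome NCBIM37 (mm9, GENCODE annotation), Cux1 lies at chr5:136724005-137043301 on the minus strand and Cux2 on the same strand of the same chromosome at chr5:122308396-122500111. Pou3f1 lies at chr4:124334896-124337899 on the plus strand, Pou3f2 at chr4:22413791-22415480 on the minus strand and Pou3f3 at chr1:42753991-42757052 on the plus strand. Rorb lies at chr19:19005095-19185686 on the minus strand, Mef2c at chr13:83643033-83806684 on the plus strand and Bhlhe22 at chr3:17954325-17957509 on the plus strand. Pou3f1, Pou3f2, Pou3f3 and Bhlhe22 each form 1 exonic block without an intron, whereas Cux1 has 35 exonic blocks, Cux2 30, Mef2c 14 and Rorb 12. Pou3f3 is the member on the chromosome of Erbb4 (chr1:68078760-69154633).

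Because the POU genes share a conserved DNA-binding domain and the reads were 50 nucleotides long, the sequences bear on whether their counts can be told apart. A stretch of 68 codons (204 nucleotides) of the POU domain encodes identical amino acids in Pou3f1, Pou3f2 and Pou3f3. Its nucleotides were 86.8% identical between Pou3f1 and Pou3f2, 90.7% between Pou3f1 and Pou3f3, and 84.3% between Pou3f2 and Pou3f3. The first of the sequences below lies at chr4:124335754-124335873 (plus strand), the next at chr4:22414298-22414417 (minus strand) and the last at chr1:42754993-42755112 (plus strand) of mm9. They show 40 of these codons (120 nucleotides, coding strand, 5′ to 3′), with the 19 positions at which the genes differ in capitals and the 101 identical positions in lower case.
Pou3f1: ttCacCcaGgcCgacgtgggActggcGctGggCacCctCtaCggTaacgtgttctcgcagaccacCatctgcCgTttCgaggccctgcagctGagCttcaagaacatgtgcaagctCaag
Pou3f2: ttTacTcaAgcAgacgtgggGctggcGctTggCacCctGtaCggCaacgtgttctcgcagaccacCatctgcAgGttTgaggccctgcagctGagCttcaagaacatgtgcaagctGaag
Pou3f3: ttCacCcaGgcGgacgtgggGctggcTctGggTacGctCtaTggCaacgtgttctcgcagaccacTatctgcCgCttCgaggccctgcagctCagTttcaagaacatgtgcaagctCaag
The capitals are spread along the stretch, and all but 1 lie at the last base of a codon. The longest run of identical nucleotides in the coding sequences was 38 between Pou3f1 and Pou3f2, 29 between Pou3f1 and Pou3f3, and 23 both between Pou3f2 and Pou3f3 and between Cux1 and Cux2. All of these are shorter than a read, and 0 of the exonic 50-nucleotide sequences of any member occurred in another member. Within mm9, 50 such sequences of Cux2 (0.763%), 8 of Pou3f2 (0.488%) and 56 of Rorb (0.534%) occurred elsewhere, and those of the other 5 members did not. The exons of Cux1 overlap those of a lincRNA on the opposite strand, Gm16599, over 394 nucleotides (5.16% of the exonic length). The libraries did not keep the strand, and Gm16599 has no row in the count files. Any read from this stretch that was counted could thus only have been counted for Cux1. The counting mode is not given, so whether reads in both orientations were counted is not known.

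The libraries held 28205703 to 48871480 counted reads, and none of them had values identical to another. Erbb4 itself, which checks the labels, was at 8.99 to 25.3 CPM in the ErbB4+/+ libraries and 20.7 to 24.6 CPM in the libraries labelled ErbB4-/- (log2 fold change 0.28, SE 0.226, adjusted p = 0.812), so its RNA was not lower in the libraries labelled as knockouts. Whether the mutant allele still gives a transcript was not tested, so the RNA does not check the labels, and ErbB4-/- is used below as the label. The paper describes ErbB4-/- mice as having complete loss of ErbB4 function. In its quantitative Western blots of neonatal cortex, their ErbB4 protein level differed from that of ErbB4+/+ mice. CPM expresses each count relative to the TMM-normalized library size. Xist, the RNA that silences an X chromosome in females, was at 983 to 1687 CPM in ErbB4+/+ replicates 1 to 3 and at 2.70 to 3.82 CPM in the other 5 libraries, and the Y-linked Ddx3y was at 76.4 to 80.9 CPM in those 5. Genotype and sex of the embryos are therefore largely confounded in the comparison of all 8 libraries. ErbB4+/+ replicate 1 stood apart on the first principal component (30.6% of the variance), and its deviation from the other libraries fell with transcript length (Spearman's rho = -0.58 across 14392 genes, which are not independent replicates, against 0.037 to 0.22 in the others).

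No member passed the test at an adjusted p of 0.05 (edgeR's quasi-likelihood test, Benjamini-Hochberg adjustment), where 4 genes of all those tested did (0.0272%). Bhlhe22, Mef2c and Rorb had unadjusted p under 0.05, all with higher values in the libraries labelled ErbB4-/-, against 5.53% of all genes under 0.05 in either direction and 3.00% with higher values. The adjusted p of the 8 members lay between 0.81 and 0.998, so these 3 remain uncalled. Log2 fold changes were above 0 for 6 members and below 0 for 2, the sign of Cux1, Cux2 and Pou3f3 turning under some alternatives, with a median of 0.15, whereas the median over all tested genes was -0.0022 and 49.2% of them were above 0. For 0 of the 8 members did the genotypes fall into separate ranges, which 3.34% of all genes did. These counts describe 8 genes measured in the same libraries, and because the tissue was sequenced in bulk, fewer cells of a type and less RNA per cell cannot be told apart.

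**Figure D1:**
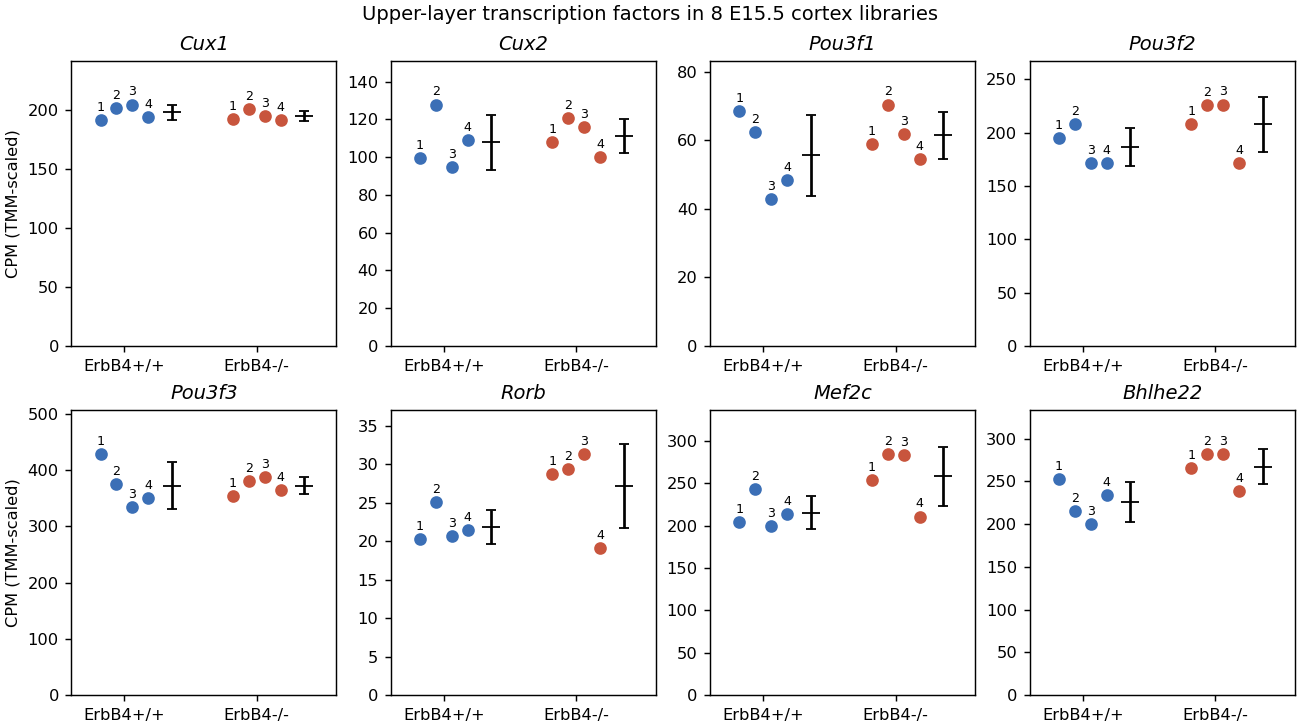
CPM (TMM-scaled, linear axes from 0) of each member in the 4 ErbB4+/+ libraries (blue) and the 4 libraries labelled ErbB4-/- (red), numbered by replicate, with the mean and SD of each genotype in black. Rorb, Mef2c and Bhlhe22 have 3 red points above every blue point, and replicate 4 lies low among the red points of all 3, while Cux1 and Pou3f3 have nearly equal means.

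Cux1 and Cux2 promote dendrite branching and synapse formation of upper-layer neurons, and Cux2 is also expressed in dividing cells of the subventricular zone. Cux1 was at 191, 201, 204 and 194 CPM in ErbB4+/+ replicates 1 to 4 and at 192, 201, 194 and 191 CPM in ErbB4-/- replicates 1 to 4. It was the steadiest member, with a coefficient of variation of 3.16% in ErbB4+/+ and 2.17% in ErbB4-/-, and the ranges overlapped almost fully. Its means were 198 ± 6.25 and 195 ± 4.22 CPM (SD, n = 4 each), with a log2 fold change of -0.02 (SE 0.047, 95% interval -0.12 to 0.08). Cux2 was at 99.4, 128, 94.7 and 109 CPM in ErbB4+/+ and at 108, 121, 116 and 100.2 CPM in ErbB4-/-. Both the highest and the lowest library were ErbB4+/+. The log2 fold change of Cux2 was 0.05 (SE 0.093, 95% interval -0.16 to 0.25), with means of 108 ± 14.7 and 111 ± 9.12 CPM. The exact two-sided permutation test over the 70 assignments of the libraries gave p = 0.429 for Cux1 and 0.714 for Cux2, where the smallest p that this design allows is 0.0286.

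Pou3f2 (Brn2) and Pou3f3 (Brn1) act redundantly in the production and migration of upper-layer neurons, and Pou3f1 (Oct6, SCIP) is expressed in cortical projection neurons and is best known for its role in Schwann cells. Pou3f1 was at 68.5, 62.4, 42.9 and 48.4 CPM in ErbB4+/+ and at 58.9, 70.4, 61.9 and 54.4 CPM in ErbB4-/-. With a coefficient of variation of 21.5% among the ErbB4+/+ libraries, it was the most variable member within that genotype, and the 3 lower ErbB4-/- libraries lay inside the ErbB4+/+ range. The log2 fold change was 0.15 (SE 0.136, 95% interval -0.15 to 0.44), but 0.04 without ErbB4+/+ replicate 3 and 0.26 (unadjusted p = 0.0481) without ErbB4+/+ replicate 1. Pou3f2 was at 195, 208, 172 and 172 CPM in ErbB4+/+ and at 208, 226, 226 and 171 CPM in ErbB4-/-. Replicates 2 and 3 of ErbB4-/- were above every ErbB4+/+ library, and replicate 4 was level with ErbB4+/+ replicates 3 and 4. Means were 187 ± 17.97 and 208 ± 25.9 CPM, and the log2 fold change of Pou3f2 was 0.16 (SE 0.094, 95% interval -0.05 to 0.36, unadjusted p = 0.123). Pou3f3 was at 429, 376, 334 and 351 CPM in ErbB4+/+ and at 354, 381, 388 and 365 CPM in ErbB4-/-, so that all 4 ErbB4-/- libraries lay within the ErbB4+/+ range. The highest value came from ErbB4+/+ replicate 1, the library that stood apart. The log2 fold change of Pou3f3 was -0.0013 (SE 0.075, 95% interval -0.16 to 0.16), and without ErbB4+/+ replicate 1 it was 0.07 (unadjusted p = 0.156). Exact permutation p was 0.429 for Pou3f1, 0.314 for Pou3f2 and 1 for Pou3f3.

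Rorb encodes the orphan nuclear receptor RORβ, a marker of layer IV neurons that takes part in forming the whisker barrels. It was at 20.3, 25.1, 20.7 and 21.5 CPM in ErbB4+/+ and at 28.7, 29.4, 31.4 and 19.1 CPM in ErbB4-/-. Replicates 1 to 3 of ErbB4-/- lay above every ErbB4+/+ library, and replicate 4 lay below them all. With means of 21.9 ± 2.19 and 27.1 ± 5.47 CPM, the log2 fold change of Rorb was 0.31 (SE 0.137, 95% interval 0.01 to 0.61, unadjusted p = 0.0431, adjusted p = 0.81), the largest among the members, and the exact permutation p was 0.143. Rorb was also the member with the fewest reads, 569 to 1413 per library.

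Mef2c belongs to the myocyte enhancer factor family and in the cortex is needed for neuronal differentiation and for setting the number of synapses. It was at 204, 244, 199.98 and 213 CPM in ErbB4+/+ and at 255, 285, 283 and 211 CPM in ErbB4-/-. Again replicates 1 to 3 of ErbB4-/- exceeded every ErbB4+/+ library, whereas replicate 4 lay among them. Mean Mef2c was 215 ± 19.8 and 258 ± 34.7 CPM, respectively, and its log2 fold change was 0.26 (SE 0.096, 95% interval 0.05 to 0.47, unadjusted p = 0.0183, adjusted p = 0.81), and the exact permutation p was 0.0857.

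Bhlhe22 (Bhlhb5) is a transcriptional repressor of the Olig family that shapes the area identity of postmitotic cortical neurons and works with Prdm8. It was at 253, 215, 199.9 and 234 CPM in ErbB4+/+ and at 266, 283, 282 and 238 CPM in ErbB4-/-. Here too 3 ErbB4-/- libraries were above all ErbB4+/+ libraries, and replicate 4 lay between the 2 highest of them. Its log2 fold change of 0.24 had the smallest unadjusted p of the members (SE 0.080, 95% interval 0.07 to 0.42, p = 0.0102, adjusted p = 0.81), with means of 226 ± 23.1 and 267 ± 20.7 CPM and an exact permutation p of 0.0571.

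**Figure D2:**
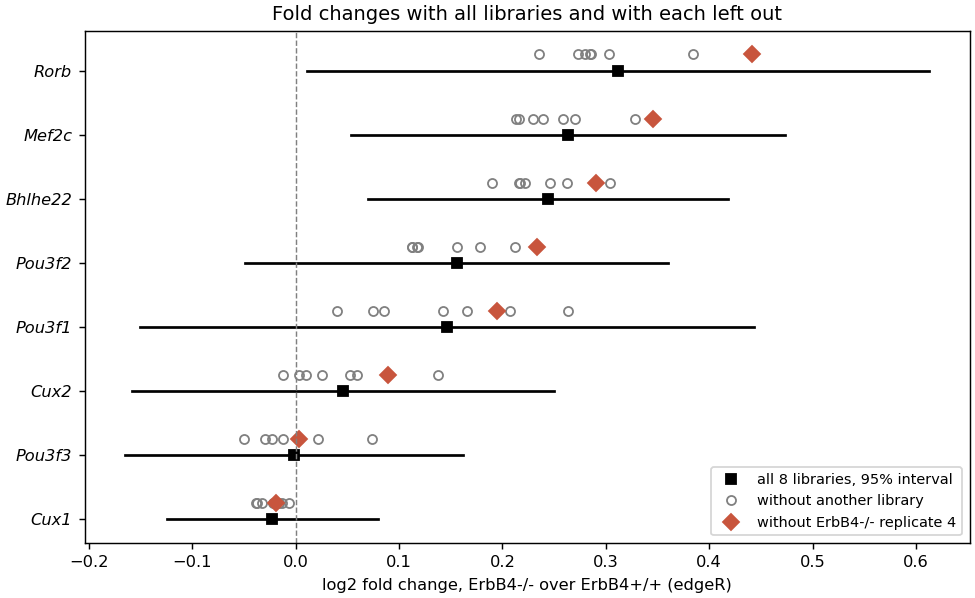
Log2 fold change of each member in the libraries labelled ErbB4-/- over ErbB4+/+ (edgeR), with all 8 libraries (black squares with 95% intervals) and with each library left out (grey circles, and red diamonds for ErbB4-/- replicate 4). The intervals of Rorb, Mef2c and Bhlhe22 lie above 0, those of the other 5 include 0, and leaving out ErbB4-/- replicate 4 gives the highest value for Rorb, Mef2c and Pou3f2.

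These values depended on single libraries. With ErbB4-/- replicate 4 left out, log2 fold changes were 0.44 for Rorb (unadjusted p = 0.000589), 0.35 for Mef2c (unadjusted p = 0.00111), 0.29 for Bhlhe22 (unadjusted p = 0.00488) and 0.23 for Pou3f2 (unadjusted p = 0.0142), and the smallest adjusted p of these was 0.232. In the same fit 7.73% of all genes had an unadjusted p under 0.05. With any 1 of the 8 libraries left out, the unadjusted p of Bhlhe22 stayed between 0.000889 and 0.0344, whereas that of Mef2c reached 0.0626 and that of Rorb 0.135. Among the 5 libraries with Y-linked counts, the single ErbB4+/+ library had 234 CPM of Bhlhe22 against 238 to 283 CPM in ErbB4-/-, 213 CPM of Mef2c against 211 to 285 CPM and 21.5 CPM of Rorb against 19.1 to 31.4 CPM. In that comparison of 1 library with 4, log2 fold changes were 0.19 for Bhlhe22 (unadjusted p = 0.0704), 0.28 for Mef2c (unadjusted p = 0.0932), 0.34 for Rorb (unadjusted p = 0.173) and 0.34 for Pou3f1 (unadjusted p = 0.0225). The adjusted p was 0.911 or more, 4.79% of all genes had an unadjusted p under 0.05, and the lone library was assumed to vary like the others.

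The deviations of the members were then compared across the libraries. Averaged over the 8 members, log2 CPM relative to each gene's mean was 0.061, 0.185, 0.163 and -0.124 in ErbB4-/- replicates 1 to 4 and -0.015, 0.051, -0.207 and -0.114 in ErbB4+/+ replicates 1 to 4. The ErbB4-/- replicate 4 thus sat closer to ErbB4+/+ replicates 3 and 4 than to the other ErbB4-/- libraries. Of the 28 pairs of members, 25 had a positive Pearson's r of log2 CPM over the 8 libraries, 7 had a permutation p under 0.05 and 1 passed after Benjamini-Hochberg adjustment over the 28. Positive r was found in 89.3% of the members' pairs and in 50% of all pairs of tested genes, and r above 0.7 in 35.7% (10 pairs) and 7.43%, as a description of these libraries. The pairs of all tested genes include genes with few reads and were not matched to the members for level. The pair that passed after adjustment was Rorb and Mef2c, with r = 0.961 (exact permutation p = 0.000868, adjusted 0.0243) and Spearman's rho = 0.881 (p = 0.00724, adjusted 0.1). The relation of Rorb and Mef2c kept r = 0.932 without the 2 libraries farthest from the median of Rorb, and r was 0.95 after each genotype's mean was removed. Pou3f2 followed both, with r = 0.91 to Mef2c and 0.90 to Rorb (adjusted exact permutation p = 0.0672 each). Over all 8 libraries the r of Cux1 to the other members lay between -0.488 and 0.254, but these values depended on few libraries. Without the 2 farthest from the median of Cux1, r was 0.873 to Cux2, 0.703 to Mef2c and 0.598 to Bhlhe22, with which it had been -0.488. To the remaining members it was then 0.58 (Pou3f2), 0.568 (Rorb), 0.416 (Pou3f1) and -0.0441 (Pou3f3). All pairs share the same libraries and the same scaling.

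Genes of the precursors and of neurons in general were set beside the members. The 13 radial glia and intermediate progenitor genes, which mark the dividing precursors, had 0 adjusted calls. Of them, 7 had an unadjusted p under 0.05, all with lower values in the libraries labelled ErbB4-/-, and 12 had log2 fold changes below 0, with a median of -0.23. Over all tested genes, 5.53% had an unadjusted p under 0.05 in either direction. Pax6, a regulator of radial glia, had a log2 fold change of -0.27 (unadjusted p = 0.00626), and Vim, the intermediate filament gene with the highest level of the list, had -0.19 (unadjusted p = 0.0303). Summed over the list, the level was 3099, 2408, 2698 and 2709 CPM in ErbB4+/+ and 2375, 2329, 2475 and 2641 CPM in ErbB4-/-. Replicate 4 had the highest sum among ErbB4-/-, and ErbB4+/+ replicate 2 lay within the ErbB4-/- range. The highest sum of all came from ErbB4+/+ replicate 1, the library that stood apart. Averaged over the list, log2 CPM relative to each gene's mean was 0.274 in that library and -0.064, 0.084 and 0.130 in ErbB4+/+ replicates 2 to 4. ErbB4-/- replicates 1 to 4 were at -0.184, -0.228, -0.077 and 0.065. Genotype and sex are largely confounded here as well, and no alternative fits are reported for this list. The 8 neuron genes, which mark postmitotic neurons in general, summed to 10005 to 10178 CPM in ErbB4+/+, to 10575, 10807 and 10770 CPM in ErbB4-/- replicates 1 to 3 and to 10061 CPM in replicate 4. None of these 8 had an unadjusted p under 0.05, 6 had log2 fold changes above 0 and 2 below, and the median was 0.03. The smallest p was that of Mapt, which encodes the protein tau (log2 fold change 0.15, unadjusted p = 0.0707). Dcx, the migrating-neuron gene with the highest level, had a log2 fold change of 0.14 (unadjusted p = 0.161). None of the genes on either list was at 0 in any library. Whether differences in the mix of progenitors and neurons between the dissected samples had a part in the values of Rorb, Mef2c and Bhlhe22 was not tested.

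**Figure D3:**
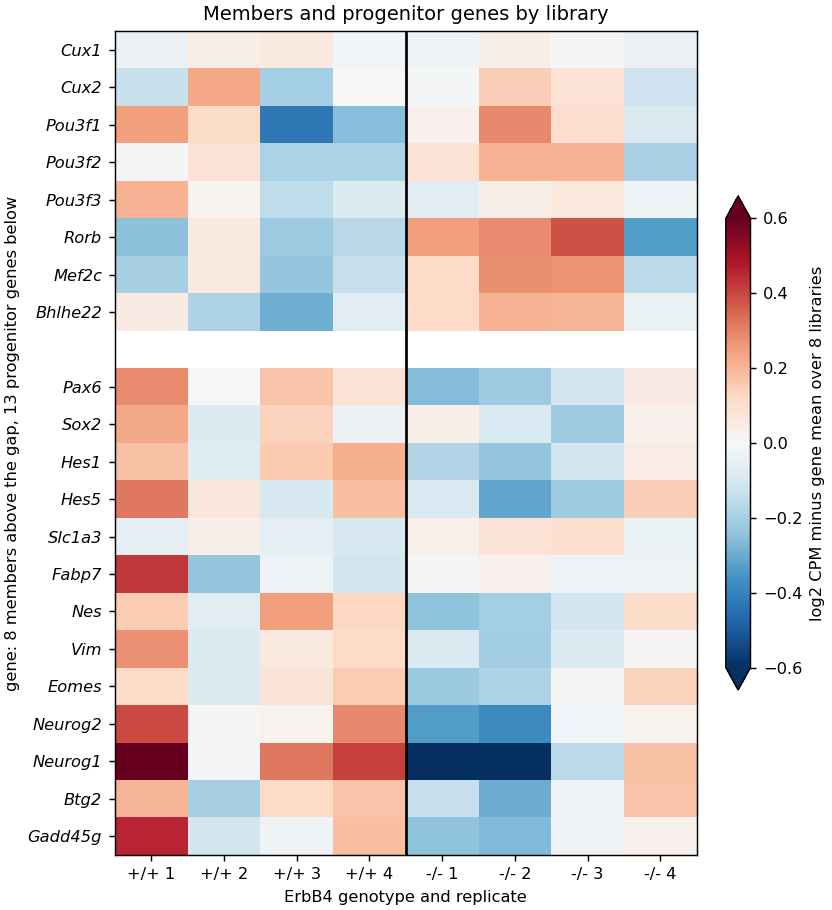
Log2 CPM of the 8 members (above the gap) and of 13 radial glia and intermediate progenitor genes (below it) in each library, relative to the gene's mean over 8 libraries (red above, blue below, colours saturating at the ends of the scale). Replicates 1 to 3 of ErbB4-/- are red for Rorb, Mef2c and Bhlhe22 and mostly blue for the progenitor genes, while replicate 4 is blue for Rorb and Mef2c and mostly pale red for the progenitor genes.

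Other genes of the cortical layers were examined in the same way. Of 12 other upper-layer genes, 0 passed the adjusted test and 9 had log2 fold changes above 0, with a median of 0.04. An unadjusted p under 0.05 was found for 1 of them, with higher values in the libraries labelled ErbB4-/-. Lhx2, a LIM-homeodomain factor and the gene of highest level in that list, had a log2 fold change of -0.06 (unadjusted p = 0.402). Of 12 deep-layer factors, 8 had values above 0 and 2 had an unadjusted p under 0.05, both higher in ErbB4-/-: Zfpm2, a GATA cofactor (0.23, unadjusted p = 0.0341), and Tle4, a corepressor of layer VI neurons (0.14, unadjusted p = 0.0342). The median of the deep-layer list was 0.02, and its most abundant gene, Nfib, had 0.01 (unadjusted p = 0.827). Among 12 paralogues and partners of the members, 10 had values above 0 and 0 had an unadjusted p under 0.05, with a median of 0.06. The smallest p in this list was that of Mef2a, a paralogue of Mef2c (log2 fold change 0.21, unadjusted p = 0.164), and the gene of highest level was Pou6f1, another POU factor (0.03, unadjusted p = 0.519). None of the deep-layer factors and none of the paralogues passed the adjusted test.

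Markers of other cells that the dissection could hold were measured at low to moderate levels. The 12 interneuron and ganglionic eminence genes summed to 692 to 897 CPM in ErbB4+/+ and 668 to 896 CPM in ErbB4-/-, and 1 of them, Sst, had an unadjusted p under 0.05, with a log2 fold change of -0.23 (unadjusted p = 0.033). Sums of 45.6 to 53.9 against 47.6 to 55.6 CPM were found for 7 microglia genes, and of 181 to 199.6 against 187 to 201 CPM for 9 endothelial and pericyte genes. Meningeal genes had the lowest sums (5 tested of 6 listed), at 13.1 to 15.7 against 12.5 to 20.2 CPM. Cajal-Retzius genes (4) summed to 186 to 262 against 239 to 290 CPM, and thalamic genes (4) to 36.6 to 55.4 against 42.4 to 47.6 CPM. In these last 5 lists no gene had an unadjusted p under 0.05, and no gene of any list was at 0 in a library. Their part in the members' values was not tested.

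To compare levels between members, the mean CPM of the 8 libraries was divided by the length of the longest annotated transcript in kilobases. Pou3f3 (122 CPM per kb) and Pou3f2 (117 CPM per kb) stood highest, with overlapping ranges over the libraries. Bhlhe22 followed at 77.3 CPM per kb, with a range from 62.8 to 88.7 that overlapped neither neighbour. Cux1 (39.2 CPM per kb) and Mef2c (36.7 CPM per kb) overlapped each other, as did Pou3f1 (19.4 CPM per kb) and Cux2 (16.2 CPM per kb). Rorb was the lowest by a wide margin, at 2.64 CPM per kb with a range from 2.06 to 3.38. This order depends on the gene model. The mm9 annotation gives Pou3f2 a transcript of 1690 nucleotides, whereas the single exon of the RefSeq gene (GRCm38.p6) has 6272, with which Pou3f2 comes to 31.5 CPM per kb. Its range is then 27.3 to 36.1, below that of Cux1 and overlapping that of Mef2c (31 to 44.2). Pou3f3 comes to 83.8 CPM per kb with its RefSeq length of 4443 nucleotides, with a range of 75.3 to 96.7 that overlaps Bhlhe22, and the values of Bhlhe22 (77.2) and Pou3f1 (19.4) hardly move. The annotation with which the reads were counted is not given in the sources used here.

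**Figure D4:**
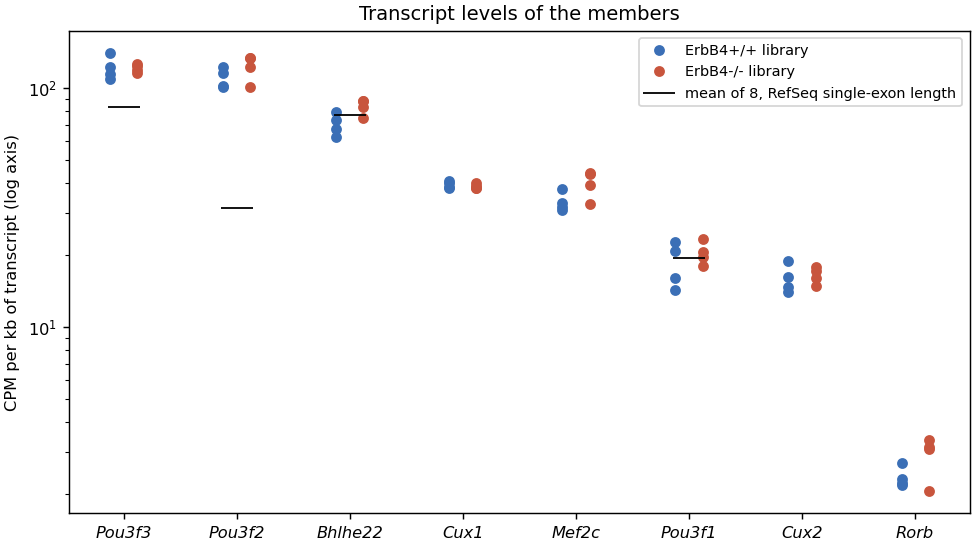
Level of each member as CPM per kilobase of its longest mm9 transcript (log axis) in each library of ErbB4+/+ (blue) and ErbB4-/- (red), with black bars for the mean of 8 libraries by the RefSeq single-exon length where the gene has no intron. Levels run from 2.64 CPM per kb for Rorb to 122 CPM per kb for Pou3f3, and Pou3f2 drops to 31.5 CPM per kb with the longer RefSeq exon.

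For each member, the tested gene outside the group whose log2 CPM followed it most closely over the 8 libraries was found by Pearson's r, as a description of these libraries. Mef2c was followed by Ica1l (r = 0.99, mean 34.5 CPM), Bhlhe22 by Mycl1, a MYC family gene (r = 0.98, 226 CPM), and Pou3f1 by Ube2ql1 (r = 0.964, 277 CPM). Rorb was followed by A830018L16Rik (r = 0.985, 7.47 CPM) and Cux2 by Gm14420 (r = 0.961, 3.18 CPM). The closest genes to Pou3f2 (BC055402, r = 0.986), Pou3f3 (Ctnna3, r = 0.964) and Cux1 (Accsl, r = 0.941) had mean levels of 0.262, 0.322 and 0.542 CPM, which rest on few reads. Each of these is the highest of 14696 genes over 8 points.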

How the data were processed

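Per the labels and the study's methods, the authors prepared polyA-selected, non-strand-specific libraries, aligned single-end 50-nucleotide reads with HISAT (mouse build mm9) and took gene counts with HTSeq-count. Tool versions, annotation and counting mode are not given in the sources used here. The deposited files hold raw counts (whole numbers, not normalized) per gene symbol. The authors' DESeq2 table, which holds mean counts, log2 fold changes, standard errors, test statistics and p-values, was not used.

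The test of 4 against 4 libraries was edgeR's quasi-likelihood F test without covariates (edgeR 4.0.16, R 4.3.3), on TMM-normalized counts of genes that filterByExpr kept (min.count 10, min.total.count 15), with Benjamini-Hochberg adjustment over 14696 genes and a threshold of 0.05. Log2 CPM had a prior count of 2. Single members were also tested by exact two-sided permutation. The common coefficient of biological variation was 10.7%, and depth was 28205703 to 48871480 counts. On simulated counts with 200 genes changed 2-fold, 200 were recovered with 10 false calls among 14715 genes, and 0 of 14711 were called with none changed. Alternatives were DESeq2 1.42.0, limma-voom (limma 3.58.1), other normalizations, filters, covariates and prior count, and leaving out each library. The comparison limited to libraries with Y-linked counts was chosen after seeing the data. The members and gene lists were chosen with earlier results of these data known. Named genes are the members, Erbb4, Xist, Ddx3y, each list's calls or else its genes with the smallest p and the highest mean CPM, and each member's closest gene by Pearson's r; Zfpm2 and Tle4 had nearly the same p and both are named. For the interneuron and later marker lists, sums are given in place of single genes, except for Sst, the gene there with an unadjusted p under 0.05. Map2 was matched through its older symbol. Figures were drawn with matplotlib 3.10.9. One gene of the other upper-layer list is not reported here by name.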

Additional observations from a re-analysis of the deposited data

Results flagged for a closer look

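Among 42 sets of 4 libraries (per genotype, each member, the members' sum, Erbb4 and the sum of each list except the sex-linked genes), 1 had a library far from the rest: the summed level of the endothelial and pericyte genes was 201 CPM in ErbB4-/- replicate 2, while the other 3 libraries of that genotype were all at 187 CPM. The gap was 0.97 of the range. Chance alone marks about 1 set in 20, and ErbB4+/+ libraries reached 199.6 CPM. None of the members' own values was marked.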

How the results depend on the processing

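No member passed the adjusted test under any alternative or with any library left out. The count of genes called over all genes, 4, was 1 with relative log expression or upper-quartile factors, 1 with the replicate block, 1 with Xist as a covariate, 2 with the length trend removed, 23 with DESeq2 and 1 among the libraries with Y-linked counts (an alternative added after seeing the data), and ran from 1 to 13 with single libraries left out (13 without ErbB4+/+ replicate 4). Members at an unadjusted p under 0.05 numbered 3, but 0 with Xist as a covariate, 1 among the libraries with Y-linked counts, 2 with the length trend removed (Bhlhe22 and Pou3f2, with Rorb at 0.148 and Mef2c at 0.0504) and 2 with limma-voom (Rorb at 0.0526), and 1 to 4 with single libraries left out (1 without ErbB4+/+ replicate 3 or ErbB4-/- replicate 2 or 3, and 4 without ErbB4-/- replicate 4). Over all genes the share under 0.05 was 5.53%, and 1.68% with Xist as a covariate, where the log2 fold changes were 0.34 for Rorb, 0.28 for Mef2c and 0.17 for Bhlhe22, 4.79% among the libraries with Y-linked counts, 7.06% with the length trend removed and 5.72% with limma-voom. The cause was not tested.

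Only fold changes near 0 changed sign. Cux1 moved to 0.0133 with Xist as a covariate and 0.0069 with Y-linked libraries, and Cux2 to -0.0163 with the length trend removed and between -0.0124 and 0.138 with single libraries left out. Pou3f3 moved to 0.0063 with upper-quartile factors, 0.0011 with a mean count of at least 50, 0.0042 with the replicate block, 0.071 with Xist as a covariate, 0.0101 with the length trend removed, 0.0053 with limma-voom and 0.0859 with Y-linked libraries, and between -0.05 and 0.0739 with single libraries left out. Rorb, Mef2c, Bhlhe22, Pou3f1 and Pou3f2 stayed above 0 in all 18 alternatives, from 0.22 to 0.44 for Rorb, 0.20 to 0.35 for Mef2c, 0.17 to 0.30 for Bhlhe22, 0.04 to 0.34 for Pou3f1 and 0.11 to 0.27 for Pou3f2. The replicate numbers were not treated as pairs: same-numbered libraries correlated at 0.084, 0.135, 0.048 and 0.024, and 2 of 4 ErbB4+/+ libraries correlated best with their own number. The least counted member, Rorb, had 569 or more reads in each library.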
